A study of Mus musculus with 7 samples.

Results

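The inflammatory CC chemokines encoded in the clusters of mouse chromosome 11 were followed in dorsal skin treated with topical ABT-263 or with vehicle. The 10 genes were chosen by name and family, with earlier results of these data known: Ccl2, Ccl3, Ccl4, Ccl5, Ccl6, Ccl7, Ccl8, Ccl9, Ccl11 and Ccl12. They are 10 of the 55450 genes in the deposited count table, and all 10 passed the filter on low counts that left 17959 genes for testing. RNA was sequenced in bulk from skin of male C57BL/6 wild type mice aged 24 months. The dorsal skin of all 7 animals was clipped, depilated, cleansed with ethanol and kept under a semi-occlusive dressing for 5 days. Of these animals, 3 (mice 476, 477 and 478) received 5 μM ABT-263, an inhibitor of anti-apoptotic Bcl-2 family proteins used to kill senescent cells, and 4 (mice 480, 481, 482 and 483) received the DMSO vehicle alone. Each library came from 1 mouse. There was no untreated skin among the libraries, so values in the DMSO group include any response to depilation, vehicle and dressing.

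CC chemokines are small secreted proteins named for a pair of adjacent cysteines near the start of the mature protein. They bind G protein-coupled receptors on leukocytes and draw monocytes, macrophages, eosinophils and T cells into tissue. Macrophages, fibroblasts and endothelial cells are among their sources in inflamed skin. Because the samples were whole skin, fewer cells of a type and less RNA per cell cannot be told apart, and the same holds for more cells and more RNA per cell.

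The genes lie in a pair of clusters on the same chromosome (GENCODE M21, GRCm38). Ccl2, Ccl7, Ccl11, Ccl12 and Ccl8 follow each other on the plus strand within chr11:82035571-82116799, a stretch of 81229 bases. Ccl5, Ccl9, Ccl6 and Ccl3 on the minus strand and Ccl4 on the plus strand occupy chr11:83525778-83664683, a stretch of 138906 bases, and 1408978 bases separate the clusters. The codons of the adjacent cysteines are shown here, in capitals, for the pair with the longest exact run in common (Ccl6 and Ccl9) and for Ccl4, where the second cysteine has another codon, as 30 bases of each GENCODE transcript.
Ccl4: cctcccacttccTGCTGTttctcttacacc
Ccl6: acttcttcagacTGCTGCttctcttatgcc
Ccl9: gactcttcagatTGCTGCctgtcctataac
Ccl3 and Ccl4, the pair with the highest identity, shared 67.0% of their coding bases, and Ccl6 and Ccl9 shared 64.4%. The longest exact run shared by any 2 of the 10 transcripts was 25 bases, between Ccl6 and Ccl9. An antisense gene overlaps Ccl6 (E230016K23Rik, 1 to 19 counts per library) and another overlaps Ccl2 (Gm17268, 0 counts in all 7 libraries), and the authors counted read pairs on 1 strand only.

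ABT-263 raised 4 of the 10 chemokines (edgeR, quasi-likelihood test, adjusted p-value below 0.05), against 12.4% of all genes tested, and lowered 0, against 11.7%. These were Ccl3, Ccl4, Ccl6 and Ccl11. The other 6 did not pass, with adjusted p-values between 0.0519 (Ccl12) and 0.115 (Ccl7). By contrast, the DESeq2 Wald test placed 8 of the 10 past the threshold, against 13.9% of the genes it tested, and gave Ccl5 no p-value. The estimated log2 fold change was positive for all 10, as it was for 50.1% of all genes tested, with a median of 1.94 against 0.00 over all genes. Summed over the 10 genes, expression in CPM with TMM normalization (counts scaled to library size) was 446, 134, 378 and 308 in DMSO mice 480 to 483. In ABT-263 mice 476, 477 and 478 it was 2087, 572 and 742. The groups did not overlap in this sum, and mouse 476 stood far above the other ABT-263 mice.

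Mouse 476 had the highest value of the 7 mice for all 10 chemokines, and it was the highest for 21.0% of all genes tested. Among DMSO mice, mouse 481 was the lowest for 6 of the 10, and it was the lowest for 27.6% of all genes tested. Without mouse 476, all 10 fold changes stayed positive with a median of 1.12, but 1 of 10 (Ccl11) passed the threshold, against 6.01% of all genes tested. Leaving out DMSO mouse 482 or 483 also lowered the count, to 2 and 1 of 10, against 4.8% and 5.58% of all genes. Without mouse 477, 478, 480 or 481 it was 3 of 10, against 12.3%, 5.22%, 11.6% and 7.95%. The other alternatives called 2 of 10 with no filter on low counts (6.11% of all genes), 4 of the 9 left when every library had to reach 10 counts (13.4%), 4 with DESeq2's size factors (12.3%), 5 with thinned counts (12.0%) and 6 with length and GC trends removed (12.5%). All 4 that rose also changed by more than 2-fold, a combination met by 7.23% of all genes.

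**Figure D1:**
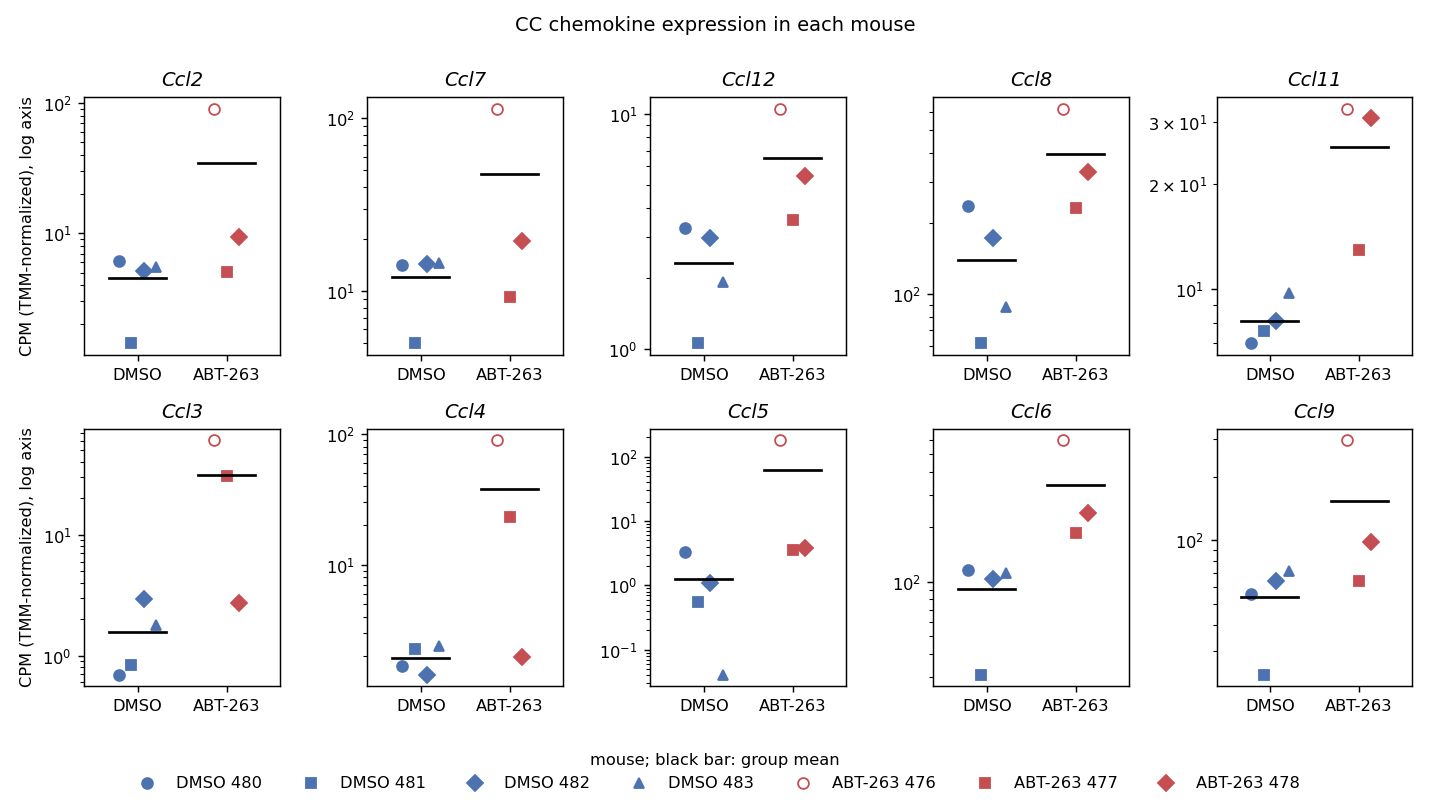
TMM-normalized CPM of each of the 10 CC chemokines on log axes, with DMSO mice in blue (n = 4), ABT-263 mice in red (n = 3), mouse 476 as an open symbol and group means as black bars. Mouse 476 is the highest point in all 10 panels, and the groups are fully apart for Ccl5, Ccl6, Ccl11 and Ccl12.

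Summed levels of the macrophage, neutrophil, endothelial and fibroblast marker lists were also higher in every ABT-263 mouse than in every DMSO mouse. Sums of the other lists, given further below, overlapped between the groups or were lower. The part of these cells in the results below was not tested. Of 15 monocyte and macrophage markers tested, 9 rose and 0 fell, against 12.4% and 11.7% of all genes tested. Their summed CPM lay between 490 and 1392 in DMSO mice and between 1670 and 5230 in ABT-263 mice. Mouse 481 was the lowest and mouse 476 the highest for this sum too. Of 12 neutrophil markers, 8 were tested and 5 rose, against 12.4% of all genes tested. Their sum lay between 103 and 1825 in DMSO mice and between 5118 and 8570 in ABT-263 mice. Most of it was S100a8 and S100a9, at 2082 and 3453 of 5570 CPM in mouse 478, and S100a9 was not called. Mmp8, Ngp, Camp, Ltf and Ly6g exceeded the DMSO range in mouse 476 only. The other markers of this list lay above all DMSO mice in all 3 ABT-263 mice. Without mouse 476, 4 of 15 macrophage and 3 of 8 neutrophil markers rose, against 6.01% of all genes tested. All 5 endothelial markers rose (sum 100.5 to 209 against 317 to 417), 3 of them also without mouse 476. Of 7 fibroblast markers, 3 rose (3941 to 5518 against 6195 to 8784), and 3 did without mouse 476. Mouse 476 had the lowest fibroblast sum of the ABT-263 mice. No marker of these lists was at 0 in all mice.

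The first group attracts monocytes through CCR2. Ccl2, the main CCR2 ligand, was at 6.18, 1.43, 5.13 and 5.50 CPM in DMSO mice 480 to 483 and at 90.4, 5.04 and 9.39 CPM in ABT-263 mice 476, 477 and 478. Mouse 477 lay within the DMSO range, and mouse 476 was 9.63 times as high as the next mouse. Its log2 fold change was 2.93 ± 1.00 (SE, adjusted p = 0.0700, edgeR), and it was 0.67 without mouse 476 (adjusted p = 0.441, edgeR). Ccl7, which binds CCR2 and other receptors, was at 14.2, 4.97, 14.3 and 14.6 CPM in the DMSO mice and at 113, 9.28 and 19.6 CPM in the ABT-263 mice. The 3 higher DMSO mice nearly coincided, mouse 481 lay far below them, and mouse 477 again lay within the DMSO range. For Ccl7 the log2 fold change was 1.98 ± 0.82 (SE, adjusted p = 0.115, edgeR), and it was 0.27 without mouse 476. Ccl12, a mouse CCR2 ligand without a direct human counterpart, was at 3.27, 1.05, 2.98 and 1.93 CPM in the DMSO mice and at 10.5, 3.55 and 5.46 CPM in the ABT-263 mice. Its groups were separate by a narrow margin, mouse 477 being 1.09 times as high as DMSO mouse 480. The log2 fold change was 1.49 ± 0.47 (SE, adjusted p = 0.0519, edgeR), which passed the threshold without mouse 477 (1.82, adjusted p = 0.0364, edgeR) but in no other fit that left out a mouse.

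Ccl8, which in mice activates CCR8, a receptor of type 2 helper T cells, had the highest level of the 10 per kilobase of exon in both groups. It was at 238, 61.5, 173 and 87.8 CPM in DMSO mice 480 to 483 and at 618, 234 and 331 CPM in ABT-263 mice 476, 477 and 478. Mouse 477 lay just under DMSO mouse 480, so the groups overlapped by 1 mouse. The log2 fold change was 1.49 ± 0.51 (SE, adjusted p = 0.0685, edgeR). It passed without DMSO mouse 480 (1.87, adjusted p = 0.0399, edgeR) and fell to 1.02 without mouse 476. Ccl11, or eotaxin, the CCR3 ligand that attracts eosinophils, was at 7.0, 7.58, 8.11 and 9.74 CPM in the DMSO mice and at 32.7, 12.9 and 30.8 CPM in the ABT-263 mice. All ABT-263 mice lay above all DMSO mice, and mouse 476 was only 1.06 times as high as mouse 478. Ccl11 rose by 1.65 ± 0.31 on the log2 scale (SE, adjusted p = 0.0117, edgeR), a 3.14-fold change. It was the only one of the 10 called in each of the 7 fits that left out a mouse, with log2 fold changes of 1.44 to 2.00 and adjusted p-values of 0.00533 to 0.0446.

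Ccl3, a ligand of CCR1, and its close relative Ccl4 are made by activated macrophages, neutrophils and lymphocytes. Ccl3 was at 0.696, 0.843, 2.93 and 1.81 CPM in DMSO mice 480 to 483 and at 60.5, 30.6 and 2.71 CPM in ABT-263 mice 476, 477 and 478. The 3 ABT-263 mice did not behave alike, since mice 476 and 477 were far above every DMSO mouse and mouse 478 lay under DMSO mouse 482. Ccl3 rose by 4.33 ± 0.97 on the log2 scale (SE, adjusted p = 0.0213, edgeR). The call was lost without mouse 476 (3.42, adjusted p = 0.0759, edgeR), mouse 477 (4.40, adjusted p = 0.0516) or DMSO mouse 483 (4.41, adjusted p = 0.0558). Ccl4 was at 1.68, 2.28, 1.44 and 2.38 CPM in the DMSO mice, a narrow range, and at 89.8, 23.0 and 1.95 CPM in the ABT-263 mice. Mouse 478 was again inside the DMSO range. Ccl4 rose by 4.29 ± 1.05 on the log2 scale (SE, adjusted p = 0.0275, edgeR), but the call held in 1 of the 7 fits that left out a mouse, the one without mouse 478. Without mouse 476 the log2 fold change of Ccl4 was 2.68 (adjusted p = 0.0779, edgeR), and without mice 477, 480, 481, 482 and 483 it was 4.60, 4.22, 4.37, 4.17 and 4.40, with adjusted p-values of 0.0541 to 0.0681.

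Ccl5, which binds CCR1 and CCR3 and is made in large amounts by T and NK cells, was at 3.31, 0.548, 1.08 and 0.0411 CPM in DMSO mice 480 to 483. It was at 179.7, 3.53 and 3.80 CPM in ABT-263 mice 476, 477 and 478. Mouse 476 was 47.3 times as high as the next mouse, and mice 477 and 478 lay only just above DMSO mouse 480. The log2 fold change was the largest of the 10 at 5.63 and had the largest standard error at 1.76 (adjusted p = 0.0573, edgeR). Without mouse 476 it was 1.56 (adjusted p = 0.377, edgeR). Of 9 T and NK cell markers tested, 1 rose (Gzma) and 0 fell, where 12.4% of all genes tested rose and 11.7% fell. The summed CPM of this list lay between 14.3 and 26.0 in DMSO mice and between 13.9 and 65.3 in ABT-263 mice, highest in mouse 476. The part of these cells in the Ccl5 values was not tested.

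Ccl6 and Ccl9 are CCR1 ligands made by macrophages and other myeloid cells of rodents. Ccl6 was at 116, 30.9, 104 and 112 CPM in DMSO mice 480 to 483 and at 595, 186 and 239 CPM in ABT-263 mice 476, 477 and 478. The groups were apart, with the lowest ABT-263 mouse 1.6 times as high as the highest DMSO mouse, and DMSO mouse 481 lay far below the other DMSO mice. Ccl6 rose by 1.91 ± 0.54 on the log2 scale (SE, adjusted p = 0.0397, edgeR). The call held without mouse 477 or DMSO mouse 481. It was lost without mouse 476 (1.23, adjusted p = 0.144, edgeR) and without mouse 478, 480, 482 or 483 (2.11, 2.05, 1.98 and 2.02, with adjusted p-values of 0.0585 to 0.0822). Ccl9 was at 56.1, 23.3, 64.7 and 71.9 CPM in the DMSO mice and at 297, 64.2 and 98.7 CPM in the ABT-263 mice. Mouse 477 lay within the DMSO range, which was not the case for Ccl6. For Ccl9 the log2 fold change was 1.5 ± 0.56 (SE, adjusted p = 0.0884, edgeR), and it was 0.60 without mouse 476.

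**Figure D2:**
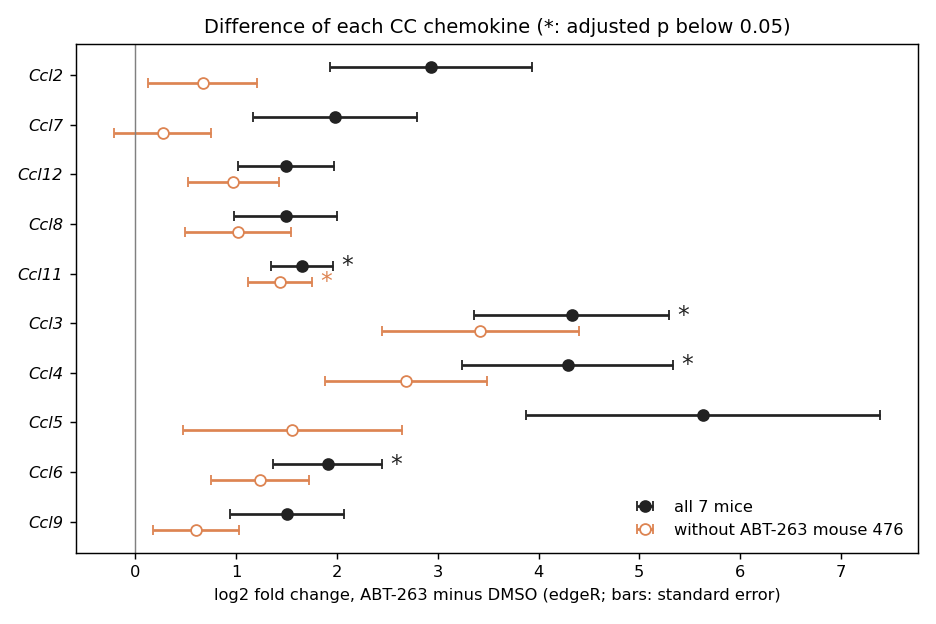
Log2 fold change of each CC chemokine, ABT-263 minus DMSO, from edgeR with standard errors, for all 7 mice (filled) and without ABT-263 mouse 476 (open), with asterisks at adjusted p-values below 0.05. With all mice Ccl3, Ccl4, Ccl6 and Ccl11 carry an asterisk, and without mouse 476 only Ccl11 does, while all 10 estimates stay above 0.

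As single values, the genes were also compared by an exact permutation test of the mean log2(CPM + 1) over all 35 assignments of mice to groups, in which the smallest possible two-sided p is 0.0286. Ccl5, Ccl6, Ccl11 and Ccl12 reached that p-value, and for these 4 of 10 every ABT-263 mouse lay above every DMSO mouse, against 18.7% of all genes tested. The exact permutation p was 0.0571 for Ccl3 and 0.0857 for each of Ccl4, Ccl8 and Ccl9. It was 0.114 for Ccl2 and 0.286 for Ccl7. Ccl3 and Ccl4, with estimated changes of 20.1-fold and 19.6-fold, thus passed edgeR's test without complete separation of the mice, whereas Ccl5 and Ccl12 separated completely without passing edgeR's test.

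The mice within the ABT-263 group differed more for some genes than for others. The highest ABT-263 mouse was 50.9 times the lowest for Ccl5, 45.9 times for Ccl4, 22.3 times for Ccl3, 17.9 times for Ccl2 and 12.2 times for Ccl7. For Ccl9, Ccl6, Ccl12, Ccl8 and Ccl11 this ratio was 4.62, 3.21, 2.97, 2.64 and 2.53. The 5 genes with the larger ratios had DMSO means of 1.25 (Ccl5) to 12.02 CPM (Ccl7), a range that also holds Ccl12 and Ccl11 (2.31 and 8.11 CPM), whose ratios were small.

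Levels of different genes were compared after division by exon length, as CPM per kb of exon. In DMSO skin the mean level was highest for Ccl8 (274 CPM per kb), then Ccl6 (50.4), Ccl9 (17.7), Ccl7 (15.0), Ccl11 (7.49), Ccl12 (4.30), Ccl2 (4.01), Ccl4 (2.94), Ccl3 (2.05) and Ccl5 (1.30). In ABT-263 skin it was 772 for Ccl8 and 189 for Ccl6, followed by Ccl5 (64.9), Ccl7 (59.2), Ccl4 (58.0), Ccl9 (50.3), Ccl3 (40.8), Ccl2 (30.7), Ccl11 (23.5) and Ccl12 (12.1). Ccl8 lay above Ccl6 without overlap of the mice in both groups, as did Ccl11 above Ccl12 in DMSO skin. All other neighbours in either order overlapped in their ranges over the mice. Compared within each mouse, Ccl6 still exceeded Ccl9 in every DMSO mouse. So did Ccl9 exceed Ccl7, narrowly in mouse 480 (18.4 against 17.7 CPM per kb). Within every ABT-263 mouse, Ccl6 exceeded Ccl5 and Ccl11 exceeded Ccl12. The ABT-263 means of Ccl5, Ccl7, Ccl4, Ccl3 and Ccl2 were set by mouse 476 or by mice 476 and 477. Ccl6, Ccl8 and Ccl9 together made up 86.1% to 92.8% of the summed CPM per kb of the 10 genes in DMSO mice. Their share was 90.9% in mouse 478, within the DMSO range, 83.7% in mouse 477 and 70.9% in mouse 476. Ccl3, Ccl4 and Ccl5 together held 1.17% to 3.07% in DMSO mice, 17.4% in mouse 476, 11.3% in mouse 477 and 1.17% in mouse 478. In mouse 478 both of these pooled shares lay within the DMSO range, while its shares of Ccl7 (2.73%) and Ccl4 (0.331%) lay below the lowest DMSO shares (3.00% and 0.430%). In mice 476 and 477 both pooled shares lay outside it. The exon lengths include retained-intron transcripts for Ccl2, Ccl5 and Ccl6, which lowers their values per kb.

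**Figure D3:**
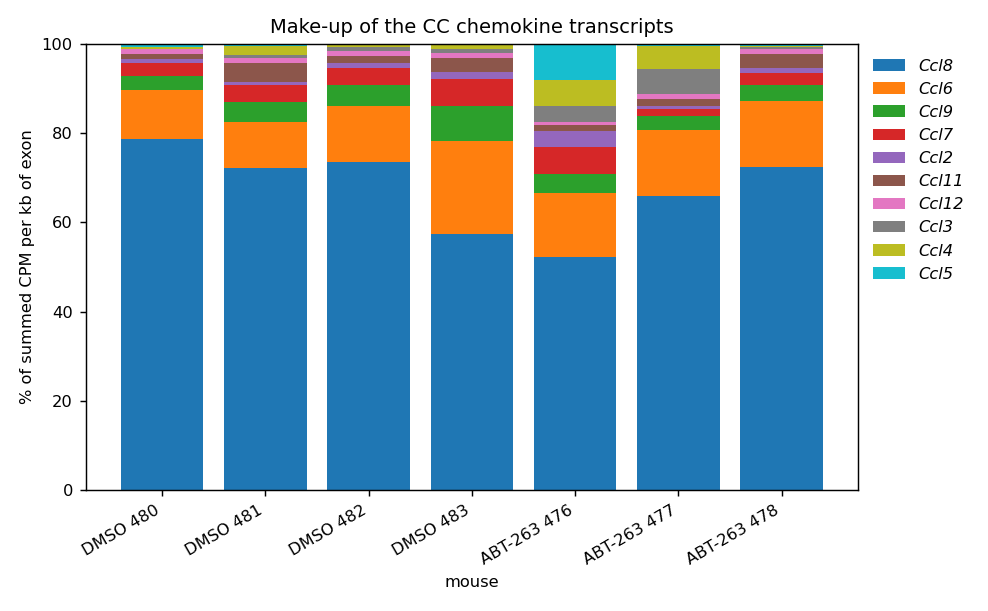
Share of each CC chemokine in the summed CPM per kb of exon of the 10 genes, in percent, 1 bar per mouse. Ccl8 forms the largest segment in every mouse, and Ccl3, Ccl4 and Ccl5 together reach 17.4% in mouse 476 and 11.3% in mouse 477 against at most 3.07% in DMSO mice.

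Across the 7 mice the genes ran in parallel to different degrees. Pearson's r of log2(CPM + 1) over the 45 pairs ranged from 0.60 (Ccl4 and Ccl11) to 0.99 (Ccl2 and Ccl7), with a median of 0.83. The correlation was 0.96 for Ccl3 and Ccl4, 0.98 for Ccl8 and Ccl12, and 0.96 for Ccl6 and Ccl9. These values include the difference between treatments and the high values of mouse 476, and the points share library and depth. Among 13664 other protein-coding genes with a mean of at least 1 CPM, those most like Ccl2 were B2m (r = 0.997), Apol9a, which has a near-identical copy, Lpxn, Rassf2 and Chid1 (r = 0.992). B2m encodes the light chain of MHC class I and was at 2056 CPM in mouse 476 and between 485 and 925 CPM in the other 6 mice. Those most like Ccl3 were Nlrp3 (r = 0.989), Tnf, Cxcl2, Gadd45b and Esd (r = 0.963). Nlrp3, the sensor of an inflammasome, was at 34.6, 17.0 and 2.69 CPM in mice 476, 477 and 478 and at 0.548 to 1.39 CPM in DMSO mice. Its order of the ABT-263 mice was that of Ccl3, a likeness by which it was picked. Those most like Ccl8 were Oasl1 (r = 0.997), Snap29, Pml, Nxpe5 and Gch1 (r = 0.985), of which Oasl1 and Pml are interferon-stimulated genes. Oasl1 was at 5.65, 1.48, 4.67 and 2.34 CPM in DMSO mice 480 to 483 and at 15.2, 6.65 and 9.07 CPM in the ABT-263 mice.

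RefSeq promoter sequence (GRCm38.p6) was at hand for 5 of the 10 genes: Ccl12, Ccl8, Ccl9, Ccl6 and Ccl3. The 100 bases before the start site are printed for Ccl8 and Ccl12, neighbours whose values ran in parallel, and for Ccl9, with matches to the motifs searched in capitals, 5′ to 3′ on the strand of the gene.
Ccl8, chr11:82115085-82115184, plus strand: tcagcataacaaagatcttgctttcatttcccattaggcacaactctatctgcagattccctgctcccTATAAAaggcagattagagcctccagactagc
Ccl12, chr11:82101745-82101844, plus strand: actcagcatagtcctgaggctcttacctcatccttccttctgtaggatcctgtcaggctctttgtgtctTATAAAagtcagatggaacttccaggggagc
Ccl9, chr11:83578637-83578736, minus strand: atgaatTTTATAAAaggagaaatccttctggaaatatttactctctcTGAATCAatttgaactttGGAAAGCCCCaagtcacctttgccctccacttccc
TATAAA began 32 bases before the start site of Ccl8 and 31 bases before that of Ccl12. With Ccl9, where it was matched on both strands in overlap and lies 92 bases before the start site, 3 of the 5 promoters held it, as did 5.56% of 32851 promoters. The Ccl9 promoter also held TGANTCA, in the form TGAATCA, and a match to the kB motif of NF-kappaB. These were present in 2.73% and 1.5% of promoters and in 1 of the 5. GAGGAA was found in the Ccl3 promoter (9.82% of promoters), while the ISRE motif of interferon-stimulated genes and TTNNGCAA were in 0 of the 5 (0.983% and 3.43% of promoters). All motifs were searched on both strands, and a match is a description of the letters only.

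Most of the receptors of these ligands are carried by monocytes, macrophages and T cells. Of 10 CC chemokine receptor genes examined 5 were tested, 3 rose and 0 fell, against 12.4% and 11.7% of all genes tested. Ccr1, the receptor of Ccl3, Ccl5, Ccl6 and Ccl9, was at 2.54, 1.35, 1.90 and 4.31 CPM in DMSO mice 480 to 483 and at 103, 11.7 and 13.6 CPM in the ABT-263 mice. All ABT-263 mice lay above the DMSO mice, and Ccr1 rose by 4.08 ± 0.86 on the log2 scale (SE, adjusted p = 0.0177, edgeR). Ccr2, the receptor of Ccl2, Ccl7 and Ccl12, was at 25.2, 16.01, 28.1 and 17.4 CPM in the DMSO mice and at 108, 32.5 and 47.8 CPM in the ABT-263 mice, and it rose by 1.53 ± 0.41 (SE, adjusted p = 0.0331, edgeR). Ccr7, the receptor for migration to lymph nodes, which binds none of these 10 ligands, rose by 2.88 ± 0.85 (SE, adjusted p = 0.0439, edgeR). Without mouse 476, Ccr1 still passed (2.33, adjusted p = 0.0190, edgeR), and Ccr2 and Ccr7 did not (0.90 and 1.35, adjusted p = 0.0649 and 0.176). The Ccr1 call was lost without DMSO mouse 482 (3.96, adjusted p = 0.0515, edgeR). It was also lost with no filter on low counts (4.10, adjusted p = 0.0687, edgeR), and DESeq2 gave Ccr1 no p-value. Among the 7 fits that left out a mouse, Ccr2 passed only without mouse 477, with adjusted p-values of 0.0514 to 0.0806 in the others (edgeR). Among the same fits Ccr7 passed only without mouse 477 or 478. With no filter on low counts neither Ccr2 nor Ccr7 passed (adjusted p = 0.0828 and 0.0992, edgeR).

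The receptors of Ccl8 and Ccl11 were scarcely measured. Ccr8, the receptor of Ccl8, had 7, 2, 0 and 0 counts in DMSO mice 480 to 483 and 18, 8 and 5 counts in the ABT-263 mice. Ccr3, the receptor of Ccl11, had 6, 0, 2 and 0 counts in the DMSO mice and 16, 15 and 8 counts in the ABT-263 mice, in libraries of 20344364 to 26824123 and 27325963 to 43562330 counts. Neither passed the filter on low counts. Eosinophils, the main carriers of CCR3, were little seen: of 7 markers 1 was tested, Ear2, which belongs to a family of close copies and fell, and Epx was at 0 in all mice. The summed CPM of this list lay between 3.39 and 5.94 in DMSO mice and between 1.26 and 2.94 in ABT-263 mice. Ear2 alone was at 2.67 to 5.69 CPM in DMSO mice and at 0.479 to 1.83 CPM in ABT-263 mice. The other markers were too scarce to be tested and did not separate the groups, so the lower sum rested on Ear2.

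Of 5 atypical chemokine receptors, which bind chemokines without G protein signalling, 3 rose and 0 fell, against 12.4% and 11.7% of all genes tested. Ackr1, carried by venular endothelium and red cells, was at 20.01, 11.8, 17.7 and 20.6 CPM in the DMSO mice and at 50.0, 20.4 and 38.0 CPM in the ABT-263 mice. Mouse 477 lay within the DMSO range. Ackr1 rose by 1.04 ± 0.31 (SE, adjusted p = 0.0441, edgeR), a call that was lost in each fit leaving out a mouse except that without mouse 477 (0.74 and adjusted p = 0.137 without mouse 476). Ackr3 and Ccrl2 rose by 1.09 ± 0.21 and 3.14 ± 0.60 (SE, adjusted p = 0.0126 and 0.0131, edgeR). Ackr2, the scavenger of inflammatory CC chemokines, was at 2.41 to 4.85 CPM in DMSO mice and at 2.54 to 4.68 CPM in ABT-263 mice, with a log2 fold change of 0.05 ± 0.32 (SE, adjusted p = 0.927, edgeR). Ackr4 was at 21.1 to 47.4 CPM in DMSO mice and at 7.79 to 20.6 CPM in ABT-263 mice. Such complete separation downwards was met by 18.4% of all genes tested. Ackr4 was not called, with a log2 fold change of -1.01 ± 0.39 (SE, adjusted p = 0.0940, edgeR).

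The other CC chemokines of the mouse, most of which guide resting or skin-homing leukocytes, were examined as a further list. Of 12 in the table, 4 (Ccl19, Ccl21a, Ccl21b and Ccl26) were at 0 in all mice. Only uniquely aligned pairs were counted, so for genes with close copies, such as Ccl21a and Ccl21b, a 0 need not mean absent RNA. Of 8 tested 0 rose and 2 fell, against 12.4% and 11.7% of all genes tested, with a median log2 fold change of -0.02. Ccl24, a further eotaxin and CCR3 ligand, was at 6.10, 4.0, 6.72 and 5.96 CPM in DMSO mice 480 to 483 and at 2.29, 2.42 and 1.80 CPM in the ABT-263 mice. All ABT-263 mice lay below all DMSO mice, the opposite of Ccl11, and the log2 fold change was -1.39 ± 0.26 (SE, adjusted p = 0.0113, edgeR). Ccl27a, a keratinocyte chemokine for skin-homing T cells whose close copies make its counts uncertain, was at 34.9, 69.4, 40.8 and 59.98 CPM in the DMSO mice and at 11.01, 19.1 and 19.9 CPM in the ABT-263 mice. Its log2 fold change was -1.62 ± 0.31 (SE, adjusted p = 0.0124, edgeR). Both calls held in all 7 fits that left out a mouse. Of 6 keratinocyte markers, 0 rose and 1 fell (Krt15), where 12.4% of all genes tested rose and 11.7% fell. Their sum lay between 28132 and 67846 CPM in DMSO mice and between 19407 and 59129 CPM in ABT-263 mice. Its part in the Ccl27a result was not tested.

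Cytokines known to induce CC chemokines were examined as well. Of 8 on the list 5 were tested, 3 rose (Il1a, Il1b and Tnf) and 0 fell, against 12.4% and 11.7% of all genes tested. Il1b was at 5.11, 12.1, 5.80 and 9.86 CPM in DMSO mice 480 to 483 and at 736, 140.2 and 38.5 CPM in ABT-263 mice 476, 477 and 478. The order of the ABT-263 mice was that of Ccl3 and Ccl4, and not that of Ccl8 or Ccl6, for which mouse 478 exceeded mouse 477. Il1b rose by 5.21 ± 0.97 (SE, adjusted p = 0.0132, edgeR). Tnf was at 1.23, 0.885, 1.54 and 1.56 CPM in the DMSO mice and at 27.0, 9.40 and 2.36 CPM in the ABT-263 mice, and rose by 3.30 ± 0.72 (SE, adjusted p = 0.0191, edgeR). Without mouse 476 both still passed, at 3.45 and 2.18 (adjusted p = 0.0227 and 0.0350, edgeR), and Tnf did not pass without DMSO mouse 482 (3.39, adjusted p = 0.0512). Il1a, which rose by 2.41 ± 0.63 (SE, adjusted p = 0.0326, edgeR), passed in 1 of the 7 fits that left out a mouse, that without DMSO mouse 480.

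**Figure D4:**
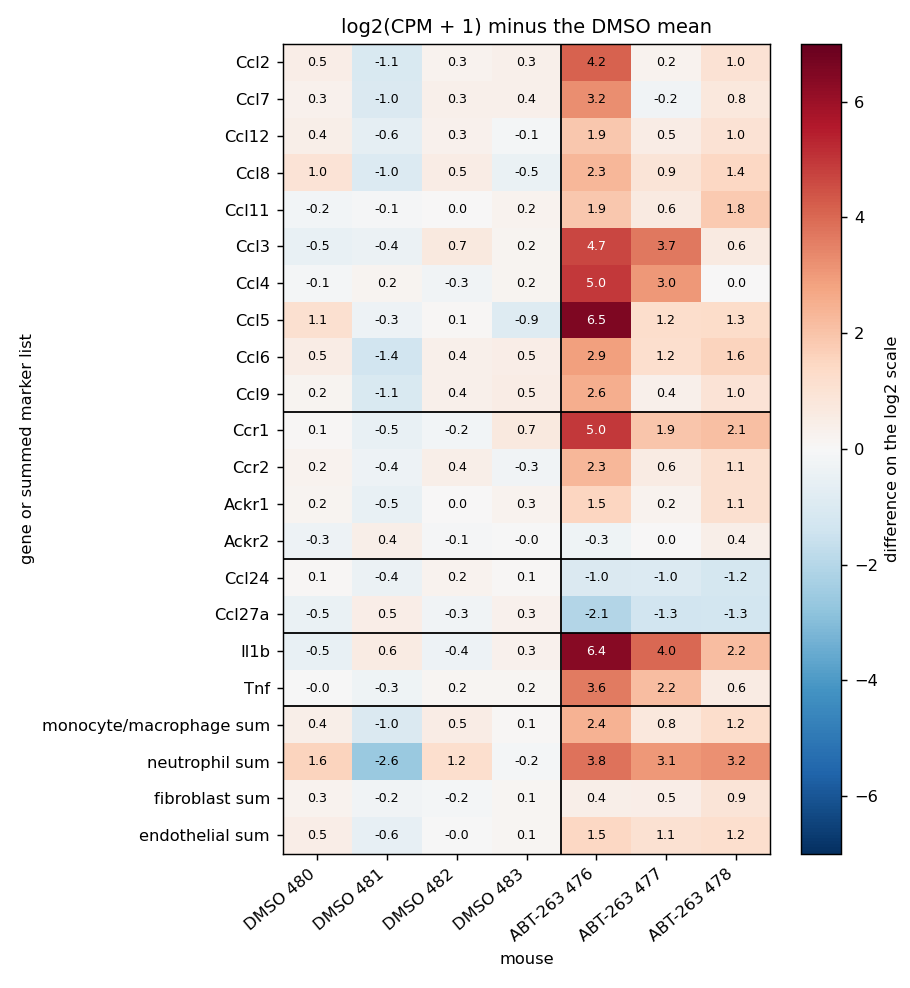
Log2(CPM + 1) minus the mean of the 4 DMSO mice, in log2 units, with 1 column per mouse. Rows are the 10 CC chemokines, 4 receptors, Ccl24 and Ccl27a, Il1b and Tnf, and summed marker lists. The lists drawn are macrophage, neutrophil, fibroblast and endothelial, and the other lists are not drawn. The column of ABT-263 mouse 476 is the highest for all 10 chemokines, mouse 478 is close to the DMSO mice for Ccl3 and Ccl4, and the rows of Ccl24 and Ccl27a are negative in all 3 ABT-263 mice.

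Genes other than CC chemokines were examined within 200 kb of the outermost members of each cluster. At the cluster of Ccl2 to Ccl8, 5 such genes are annotated and 1 was tested, Asic2, with a log2 fold change of -0.22 ± 0.49 (SE, adjusted p = 0.767, edgeR). At the cluster of Ccl5 to Ccl4, 10 of 25 such genes were tested, 3 rose and 1 fell, against 12.4% and 11.7% of all genes tested. Taf15, at chr11:83473086-83506743, went from a mean of 192 to 124 CPM, with a log2 fold change of -0.64 ± 0.16 (SE, adjusted p = 0.0288, edgeR). Mmp28 rose by 0.89 ± 0.25 and Ap2b1 by 0.49 ± 0.15 (SE, adjusted p = 0.0377 and 0.0455, edgeR). The third that rose was Wfdc17. The genes tested around the second cluster thus moved in both directions.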

How the data were processed

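Skin RNA from 7 mice was sequenced by the authors, 1 library per mouse. Per the labels and the study's methods, reads were aligned to mm10 with STAR 2.7.9a, and featureCounts (Subread 1.6.2) with Ensembl annotation 109 gave the deposited counts, which are raw counts of uniquely aligned proper pairs per non-mitochondrial gene. A deposited table of variance-stabilized values was not used. Totals were 20344364 to 26824123 counts (DMSO) and 27325963 to 43562330 (ABT-263), so every ABT-263 library was larger, and 1 CPM equals 19.5 to 46.6 counts. The labels name no batch. Symbols, positions and exon lengths came from GENCODE M21 on GRCm38, which holds 55104 of the 55450 identifiers.

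Counts were compared with the quasi-likelihood test of edgeR 4.0.16 in R 4.3.3 (TMM, filterByExpr, robust, all 7 mice, no covariates), two-sided. P-values were adjusted by Benjamini-Hochberg over all 17959 genes in the fit. A gene was called at an adjusted p under 0.05. CPM used TMM factors. Exact permutation tests used log2(CPM + 1), and their p-values were not adjusted. Tested on simulated data, edgeR recovered most of 200 genes changed 4-fold. Sequences were handled with Biopython 1.88.

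Alternatives comprised the Wald test of DESeq2 1.42.0 with default filters, DESeq2's size factors, no filter on low counts, at least 10 counts in every sample, counts thinned to the smallest library, removal of trends on length and GC content (mgcv 1.9.3), a 2-fold threshold, each mouse left out, a pseudocount of 0.1, and CPM from total counts. The 10 chemokines and all gene lists were chosen with earlier results of these data known. Named were the 10 chemokines, called genes of the other lists, Ccr1, Ccr2, Ccr3, Ccr8, Ackr1, Ackr2, Il1b and Tnf whatever their call, the 5 genes most like Ccl2, Ccl3 and Ccl8 by Pearson's r, and up to 3 neighbours per cluster with the smallest p. Wfdc17, Ackr4, S100a9, Mmp8, Ngp, Camp, Ltf, Ly6g, Epx, the other genes at 0 and the overlapping antisense genes were named after their values were seen. A further gene is not reported here.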

Additional observations from a re-analysis of the deposited data

Results flagged for a closer look

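Among DMSO mice, 2 of the 19 measures examined had a mouse farther from the other 3 than Dixon's 95% critical value allows for 4 samples, and chance gives such a gap in about 1 of 20 groups. Both concerned mouse 481, which was low. Ccl6 was at 30.9 CPM in mouse 481 and between 104 and 116 CPM in mice 480, 482 and 483, a gap of 0.856 of the range. Ccl7 was at 4.97 CPM in mouse 481 and between 14.2 and 14.6 CPM in the others, a gap of 0.960 of the range. The summed macrophage and neutrophil markers were also lowest in mouse 481 (490 and 103 CPM), and their part in these values was not tested. Without mouse 481 the log2 fold change of Ccl6 was 1.62 (adjusted p = 0.0482, edgeR) and that of Ccl7 was 1.71 (adjusted p = 0.192).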

How the results depend on the processing

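All 10 fold changes kept a positive sign under every alternative run. Ccl11 was called in all 13 alternative fits, Ccl3 in 9, Ccl6 in 7, Ccl4 in 6, Ccl12 in 5, Ccl8 in 2, Ccl2 and Ccl9 in 1 each, and Ccl7 in 0 (lowest adjusted p 0.0575). Ccl5 was called in 1 of 11, since DESeq2 gave it no p-value and the filter of 10 counts in every sample removed it. The DESeq2 Wald test called 8 of the 10 chemokines, adding Ccl2 (2.97), Ccl8 (1.51), Ccl9 (1.53) and Ccl12 (1.52), with adjusted p-values of 0.0116 to 0.0278. It also called 1 receptor lower (Ccr10, named after its value was seen) and 1 atypical receptor (Ackr4). DESeq2 made more false calls than edgeR on simulated data. In that simulation the changed genes all had the same fold change, unlike the genes measured here. The simulation therefore cannot show which DESeq2 calls in these mice are false. With no filter on low counts, 2 chemokines were called: Ccl3 (4.35), Ccl4 (4.32) and Ccl6 (1.93) no longer passed and Ccl12 (1.52) did, 0 receptors were called higher, and 1 inducing cytokine was. This alternative adjusts over 30645 genes, of which 6.11% were called higher. Ccl12 also passed with thinned counts (1.59) and, like Ccl5 (5.74), with length and GC trends removed (1.52). The cause of these shifts was not tested. In the exact permutation test, the difference of Ccl3 with CPM from total counts was 3.06 (p = 0.0286), and that of Ccl5 with a pseudocount of 0.1 was 4.13 (p = 0.0571).

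With each mouse left out in turn, 1 to 3 chemokines, 0 to 3 receptors and 1 to 3 inducing cytokines were called higher. The share over all genes was 4.8% to 12.3% in these fits. The log2 fold change ranged from 3.42 to 4.88 for Ccl3, from 2.68 to 4.86 for Ccl4, from 1.23 to 2.24 for Ccl6, from 1.02 to 1.87 for Ccl8 and from 0.97 to 1.82 for Ccl12. The lowest value of each was that without ABT-263 mouse 476. No paired analysis was possible because the labels give the mice of the groups no numbers in common. With 4 mice against 3, an exact test cannot go below 0.0286, and counts of Ccr3, Ccr8 and Ccl5 in some DMSO mice were too low for a difference between neighbouring values to be read.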

Other observations

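The remaining marker lists were examined beside the chemokines, and their part in the chemokine values was not tested. Of all genes tested, 12.4% rose and 11.7% fell, so 1 call in a list of 5 or 6 genes says little about the list. Of 6 mast cell markers tested, 1 rose and 0 fell, with summed CPM between 56.1 and 159 in DMSO mice and between 79.9 and 219.7 in ABT-263 mice. Of 5 Langerhans and dendritic cell markers tested, 1 rose (Cd209a) and 0 fell, with sums between 124 and 205 in DMSO mice and between 91.6 and 163 in ABT-263 mice. Of 6 skeletal muscle markers, 0 rose and 1 fell, with sums between 27226 and 56345 in DMSO mice and between 23257 and 32265 in ABT-263 mice, so the skin samples of both groups held muscle RNA.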
